A study of Homo sapiens with 32 samples.

Results

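The transcripts described here are 599 human messenger RNAs of middle length in which at least 30% of sequenced reads carried the mark of RNA made within a 2 h labelling pulse. They were chosen from the RefSeq coding (NM_) rows of the deposited tables, keeping for each gene the row with the most reads over all 32 libraries. A gene was a member when that row was at least 300 and under 4000 bases long, had at least 400 reads summed over the 4 libraries of unstressed parental cells with vehicle, and had a labelled share of at least 30% in that sum. The labelled share is the percentage of reads with at least 1 T-to-C conversion, which is how the nucleoside 4-thiouridine (s4U) is read out in SLAM-seq. Of 18791 genes, 4477 met the length and read limits and 599 of these met the share limit. The 3878 genes below it are the comparison set, in which 3859 genes had values because rows identical in every library were counted once.

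The cells were HCT116, a human colorectal carcinoma line that expresses the plant F-box protein OsTIR1 from a doxycycline-inducible promoter, either parental or with both endogenous IGF2BP3 copies fused to a mini-auxin-inducible degron (mAID-IGF2BP3, here called tagged). In the tagged line, auxin directs the fusion protein to degradation through OsTIR1, while parental cells carry no degron. All 8 groups received doxycycline at 200 ng/mL for 24 h and s4U at 250 µM for 2 h. Auxin (indole-3-acetic acid) was given at 500 µM for 9 h or replaced by its DMSO vehicle, and tunicamycin at 5 µg/mL for 5 h or replaced by DMSO. The groups are therefore parental or tagged, unstressed or stressed with tunicamycin, and with vehicle or auxin, each with 4 libraries. Each library came from 1 well of a 24-well plate, and no label names separate cultures or days, so p-values measure the spread between these wells. Libraries were 3′-end QuantSeq libraries, in which 1 read stands for 1 transcript end. Differences between groups were tested within each gene.

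Tunicamycin blocks the first step of N-linked glycan assembly, and unfolded glycoproteins then accumulate in the endoplasmic reticulum (ER). The unfolded protein response answers through IRE1, which splices XBP1 mRNA, through PERK, which phosphorylates eIF2α and lets ATF4 and then CHOP be made, and through ATF6. In a short s4U pulse, the labelled share of a transcript rises with its turnover, because a short-lived mRNA is replaced within the pulse and a stable one is mostly older than it. Immediate-early transcription factors, feedback inhibitors of signalling and many cell cycle regulators are textbook short-lived mRNAs. Many of them carry AU-rich elements or Pumilio elements after the stop codon, to which decay factors of the ZFP36 and Pumilio families bind. IGF2BP3 is an RNA-binding protein of the IMP family that is known for binding and stabilising messenger RNAs in tumours.

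AU-rich elements are shown first because more of the members than of the other eligible genes carried one, as counted in the next paragraph. In each line below, the 9 capitals are the nonamer TTATTTATT, the core of the classical AU-rich element, with 10 bases on either side, read from the transcript sequences of the GENCODE annotation (GRCh38, 5′ to 3′ on the transcript strand).
TIPARP: aggattctatTTATTTATTtacgtttgat
PLK2: aataaactttTTATTTATTacagcccaaa
CDK5R1: tcccttatttTTATTTATTtttgtactgt
ZFP36L2: actatttaacTTATTTATTatcttgtgaa
MAFF: tccccactgtTTATTTATTgcacggatct
PMAIP1: aggaataattTTATTTATTttgcctattt
The coordinates that follow cover the whole printed stretch, flanks included. TIPARP is a mono-ADP-ribosyltransferase with 2 such sites in its mRNA, and the site shown lies at chr3:156705515-156705543 (plus strand). PLK2, a polo-like kinase and p53 target, has its site at chr5:58454066-58454094 (minus strand). The CDK5R1 site, in the mRNA of the CDK5 activator p35, lies at chr17:32491195-32491223 (plus strand). ZFP36L2 is itself a protein that binds AU-rich elements and its site lies at chr2:43223448-43223476 (minus strand). MAFF, a small MAF transcription factor, also has 2 sites, and the site shown lies at chr22:38215914-38215942 (plus strand). The site of PMAIP1, which encodes the death-promoting BH3 protein NOXA, lies at chr18:59903961-59903989 (plus strand). Each of these 6 sites lies between the stop codon and the end of the transcript.

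A transcript sequence behind the counted 3′ end was found for 514 of 599 members (85.8%) and for 3237 of 3859 other eligible genes (83.9%), and the motifs were counted on the sense strand only. The nonamer TTATTTATT was present in 13.8% of the members and in 5.56% of the others. The heptamer TATTTAT, which lies within the nonamer, was present in 46.9% of the members and 27.96% of the others, and the pentamer ATTTA, which lies within both, in 88.5% and 71.9%. The Pumilio element TGTANATA was present in 43.6% of the members and 24.3% of the others. Among the 100 members with the highest share, 18.8% held the nonamer and 47.1% the heptamer. Longer windows hold more motifs by their length, and the members were longer, with a median of 1633 bases against 1200.0. Within windows of 300 to under 1000 bases the heptamer was in 30% of the members and 14.4% of the others, within 1000 to under 2000 bases in 42.1% and 28.1%, and within 2000 to under 4000 bases in 65.3% and 50.6%. The members therefore held it more often in each of the 3 length classes. Their rows were also richer in T, at a median of 31.5% against 29.4%, and the part of base composition in the motif counts was not tested. A match is a description of these letters and not evidence that a factor binds there.

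**Figure D1:**
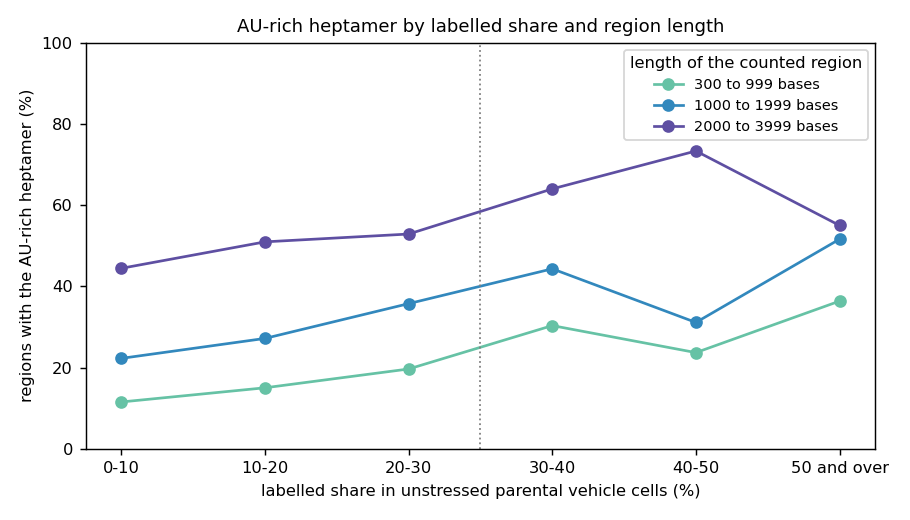
Percentage of eligible genes whose 3′ window holds the AU-rich heptamer (vertical axis), by labelled share in unstressed parental cells with vehicle (horizontal axis, percent of reads), with 1 line for each of 3 length classes of the counted row. In the shortest class the line runs from 11.5% of genes with a share under 10% to 36.4% of those with a share of 50% or more, and in the middle class from 22.3% to 51.6%. Both lines are lower at a share of 40 to 50% than at 30 to 40%, at 23.7% against 30.3% and 31.1% against 44.3%, and the longest class runs from 44.4% to 55.0% with 73.3% at 40 to 50%, where each point from 40% upwards rests on 20 to 45 genes.

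The highest shares are a description, because these values chose the members. DUSP2, a nuclear phosphatase of MAP kinases, had the highest share at 83.9%, with 80.8, 83.1, 81.1 and 89.5% in the 4 libraries. RSRP1, an arginine- and serine-rich protein, followed at 81.7%, with 77.5, 79.7, 83.8 and 83.7%. The arrestin-domain protein ARRDC3 had 79.1%, with 76.3, 80.7, 77.4 and 81.1%. The immediate-early transcription factors EGR1 (gene at chr5:138465479-138469303, GRCh38.p14) and JUNB had shares of 77.9, 75.6, 81.2 and 78.6% and of 82.4, 81.5, 74.5 and 77.7% in the 4 libraries. IER5, an immediate-early gene linked to the heat shock response, had 82.1, 76.9, 79.5 and 74.7%. The HLH repressors ID1 and ID3, which sequester bHLH transcription factors, had 78.2, 74.8, 78.8 and 74.2% and 77.6, 74.0, 76.0 and 75.1%. TIPARP had 75, 59.0, 75.2 and 82.3% and the polarity protein PARD6B 75.7, 71.4, 77.7 and 73.9%. The 4 libraries of TIPARP spread most of these 10 genes, and the ranges of neighbours in this order overlapped. At the other end, WDR36, TIMM10B and SLC25A28 lay just inside the limit at 30% each, and RRS1, DNAJB1 and CPAP just outside it at 29.96%, 29.95% and 29.94%. The kinase CLK1, at 79.1%, missed the lower length limit with a row of 297 bases, and MBP, at 32.2%, missed the upper one with 4031 bases. GMNN (300 bases) and ATXN7 (3995 bases) were the members nearest the length limits. DCUN1D2 missed the read minimum with 399 reads, and C2orf68 met it with 401.

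Most members had shares near the limit. In the choosing group 357 had 30 to 40%, 143 had 40 to 50%, 55 had 50 to 60%, 26 had 60 to 70% and 18 had 70% or more. Member reads covered a median of 25.7 T positions each against 23.2 in the other eligible genes. In the same choosing libraries the conversion rate, also a description, was 3.13 per 100 covered T positions in the median member and 1.12 in the median other gene. For 294 members the tables held several NM_ rows, of which 1 was used.

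In the other 7 groups, which the choice did not use, the median member again had a higher labelled share than the median of the other eligible genes. Their median share was 36.3% in unstressed tagged cells with vehicle, 34.8% in unstressed parental cells with auxin and 33.0% in unstressed tagged cells with auxin. It was 31.4% and 31.98% in stressed parental and tagged cells with vehicle, and 28.8% and 28.3% with auxin. The other eligible genes had medians of 13.2%, 13.0% and 12.1% in the 3 unstressed groups named first and of 11.5%, 11.7%, 10.7% and 10.5% in the stressed ones. The medians of both sets were lower in each stressed group than in its unstressed counterpart, and lowest in stressed cells with auxin. Taken library by library, the median member had 36.8% ± 2.28 (SD, n = 4) in unstressed and 32.1% ± 1.58 in stressed tagged cells with vehicle, 33.7% ± 2.02 and 29.02% ± 1.63 in tagged cells with auxin, and 35.3% ± 1.31 and 28.4% ± 2.37 in parental cells with auxin. Every stressed library lay below every unstressed one in the first and the last of these pairs, and the ranges overlapped in tagged cells with auxin. Share differences between groups are therefore given below relative to the typical gene. Conversions per 100 covered T positions of the members went the same way, from 3.48 in unstressed to 2.66 in stressed tagged cells with vehicle and from 2.93 to 2.12 in parental cells with auxin.

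Outside the choosing group, between 262 (stressed tagged cells with auxin) and 488 (unstressed tagged cells with vehicle) of the 599 members still had a pooled share of at least 30%, against 12 to 43 of the 3859 other genes. In all 8 groups 216 members stayed at or above 30%, and of the 100 with the highest shares 99 did. Another 69 were under 30% in all 7 other groups, so their place in the set rests on the group that chose them. When the 599 eligible genes with the highest share were taken in each other group, 526 members (87.8%) were among them in unstressed tagged cells with vehicle and 465 (77.6%) in stressed tagged cells with auxin, the 2 extremes. The CPM (read counts scaled by library size) of all members summed to 44218 ± 883 (SD, n = 4) in unstressed and 53987 ± 4942 in stressed parental cells with auxin. The corresponding sums were 42279 ± 538 and 48678 ± 534 in tagged cells with vehicle, and 43444 ± 773 and 49439.9 ± 757 in tagged cells with auxin.

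**Figure D2:**
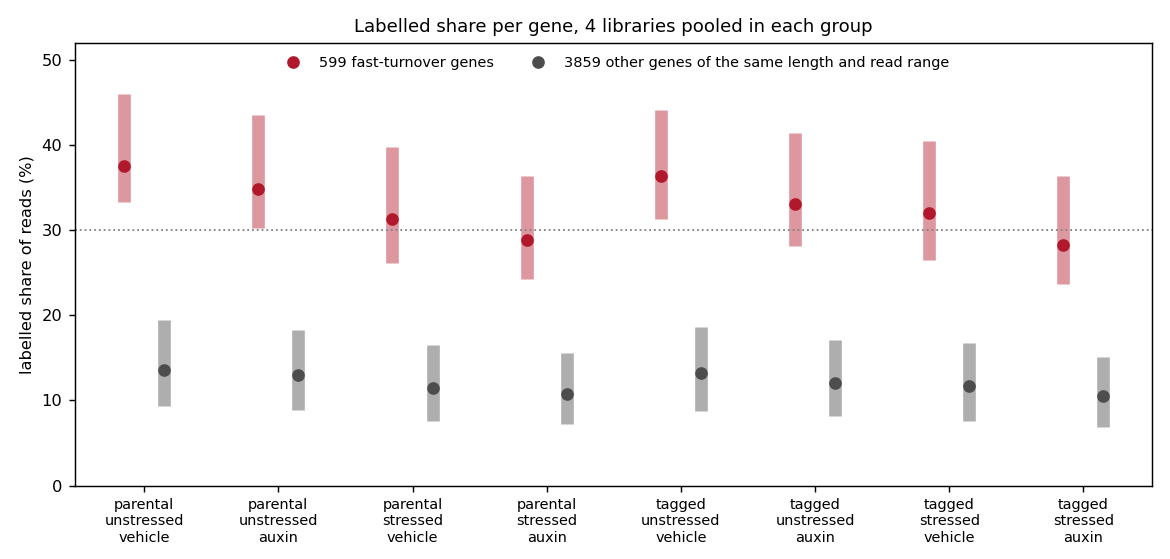
Labelled share (percent of reads) of the 599 members and of the 3859 other eligible genes in each of the 8 groups, shown as the median with its quartiles over genes, each gene pooled over the 4 libraries of the group. The dotted line marks the 30% limit, which was applied in the first group, and the member medians run from 37.5% there to 28.3% in stressed tagged cells with auxin.

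The members that the function lists name were transcription factors, signalling and survival regulators, chromatin proteins and ubiquitin ligases. Of the 4477 eligible genes 13.4% were members, and that percentage is the background for the following counts, in which each list was read as members among its eligible genes. Immediate-early genes, a list mostly of transcription factors, had 11 of 13, among them EGR1, FOSL1, KLF6 and the apoptosis regulator IER3. Feedback regulators of MAP kinase, NF-κB, TGF-β and WNT signalling had 10 of 15, with the EGFR inhibitor ERRFI1, the WNT antagonist DKK1 and the ERK phosphatases DUSP5 and DUSP6 the most read. ATF4, CHOP and unfolded protein response genes had 10 of 15, C2H2 zinc-finger genes 45 of 75, HLH repressors of the ID and HES type 3 of 5 (ID1, ID2 and ID3) and secreted growth factors and cytokines 6 of 10. The C2H2 list was taken by symbol prefix and also holds ZFP36L1 and ZFP36L2, which are CCCH proteins. Forkhead, SOX, GATA and homeobox factors had 11 of 20, chromatin regulators 19 of 35, p53 targets 7 of 15, mRNA decay regulators 10 of 22, splicing regulators 12 of 28, survival and death regulators 6 of 14 and cell cycle regulators 15 of 36. Circadian clock genes had 2 of 5 and aryl hydrocarbon receptor genes 2 of 4. Shares nearer the background were those of KLF, SP and MAX-network factors with 3 of 9, ubiquitin ligases and deubiquitinases with 28 of 104, polyamine and sterol genes with 2 of 14 and reported IGF2BP3 targets with 1 of 9. The median member share was highest in the HLH repressors at 75.8% and stood at 63.8% in feedback regulators and 63.8% in immediate-early genes, against 36.2% in ubiquitin ligases and deubiquitinases. Together the lists named 188 members, and 411 were in none of them.

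NM_ genes received 2.54 to 6.96 M reads in 31 libraries, and replicate 1 of stressed parental cells with auxin had 0.984 M. That library stood apart in other measures as well, with 15.1 covered T positions per read against 22.6 to 22.9 in the other 3 of its group, and it is here called the shallow library. The ER chaperone gene HSPA5 had 602 to 900.3 CPM in the 16 unstressed and 3326 to 4769 CPM in the 16 stressed libraries, and the gene of CHOP, DDIT3, had 14.8 to 29.7 and 496 to 972 CPM. IGF2BP3 mRNA was at 129.9 to 235 CPM in all 32 libraries, and since auxin acts on the protein this level does not check the depletion. The epithelial genes EPCAM (125 to 437 CPM) and KRT18 (487 to 1042 CPM) were present throughout, and the leukocyte genes PTPRC and CD3E had 0 reads in all 32 libraries. In such bulk libraries, fewer cells and less RNA per cell cannot be told apart.

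In total reads more members were called higher than lower with tunicamycin, which also held for all genes tested. The largest rises were those of SESN2 and STC2. All 599 members passed the filters on low counts, which left 11167 genes for total reads and 8951 for the labelled share and labelled reads. Differences were tested gene by gene with edgeR's quasi-likelihood test over all genes and Benjamini-Hochberg adjustment at 0.05, in the 3 stress comparisons that do not use the choosing group. In parental cells with auxin 71 members rose and 50 fell, where 7.19% of all genes tested rose and 3.19% fell. In tagged cells with vehicle 40 rose and 28 fell, against backgrounds of 2.93% and 1.10%. In tagged cells with auxin 42 rose and 23 fell, against 3.01% and 1.12%. As percentages of the members these were 11.9%, 6.68% and 7.01% higher and 8.35%, 4.67% and 3.84% lower, each above its background. Of the other eligible genes 8.60%, 2.90% and 2.93% rose and 3.19%, 1.04% and 1.17% fell. The median member was near 0, with log2 differences of -0.04, -0.02 and -0.04 beside -0.003, -0.01 and -0.007 for all genes, and the median standard error of a member was 0.17, 0.16 and 0.16. Called or not, 45.2%, 46.2% and 45.9% of the members had a positive difference, beside 49.7%, 47.9% and 48.4% of all genes. Without the shallow library the calls were 77 higher and 50 lower (background 5.61% and 3.71%) in parental cells with auxin, 76 and 53 (5.09% and 2.66%) in tagged cells with vehicle, and 70 and 53 (5.06% and 3.08%) in tagged cells with auxin. When only the 2 groups of a comparison entered the fit, the calls numbered 18, 115 and 123, and shares over all genes were not counted in that fit. The fit without the shallow library kept 95 of the 121 calls in parental cells and all 68 and 65 in tagged cells. The 3 comparisons share no library, and 33 members rose and 14 fell in each of them, beside 245 and 49 of all genes. None was called in opposite directions. All 33 and all 14 were again called in each without the shallow library, among 55 higher and 29 lower in all 3, counts not made over all genes.

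Of the 10 members in the list of ATF4, CHOP and unfolded protein response genes, 8 rose in parental cells with auxin, 6 in tagged cells with vehicle and 7 in tagged cells with auxin, and none fell. The largest rise in total reads was that of SESN2, a stress-induced inhibitor of mTORC1 signalling. In tagged cells with vehicle SESN2 had 41.4, 43.9, 32.1 and 38.7 CPM without tunicamycin and 348, 316, 322 and 357 CPM with it, and in parental cells with auxin 33.8, 41.1, 33.5 and 35.2 CPM without tunicamycin and 554, 357, 342 and 307 CPM with it. By edgeR's quasi-likelihood test its log2 difference was 3.43 ± 0.16 (SE, adjusted p = 9.31e-17) in parental cells with auxin, 3.10 in tagged cells with vehicle and 3.29 in tagged cells with auxin. STC2, a secreted stanniocalcin, had 79.1, 90.7, 75.6 and 86.5 CPM without tunicamycin and 617, 602, 496 and 574 CPM with it in tagged cells with vehicle and log2 differences of 2.42, 2.78 and 2.52 in the same order. XBP1, the transcription factor spliced by IRE1, had 34.7, 36.7, 41.2 and 33.4 CPM without tunicamycin and 214, 199, 188 and 185 CPM with it and log2 differences of 2.14, 2.43 and 2.11. Every stressed well lay above every unstressed well for these 3 genes in that comparison. CEBPB, a bZIP partner of ATF4 and CHOP, had 33.1, 35.4, 21.7 and 21.0 CPM without tunicamycin and 152, 151, 127 and 127 CPM with it, and its differences were 1.90, 2.33 and 2.05. The amino acid transporter SLC38A2, an ATF4 target, had 337, 340.5, 341 and 377 CPM without tunicamycin and 1071, 1140.0, 1051 and 1213 CPM with it, with differences of 1.55, 1.68 and 1.55. CEBPG, another C/EBP family partner of ATF4, rose by 1.20, 1.23 and 1.14. MIDN rose in parental and tagged cells with auxin, by 0.89 and 0.63, and had 0.57 in tagged cells with vehicle, where it did not pass. ARRDC3 passed only with 0.35 in parental cells with auxin and had 0.27 and 0.25 in tagged cells. NFE2L2, the antioxidant regulator NRF2, had differences of -0.33, 0.30 and 0.01 and PPP1R15B, the constitutive eIF2α phosphatase subunit, of -0.47, 0.10 and 0.00, and neither passed in any of the 3. In stressed parental cells with vehicle, set beside the group that chose the members and therefore without a test, SESN2 differed by 2.93, STC2 by 2.99 and XBP1 by 2.14. With the shallow library left out, MIDN at 0.51, 0.58 and 0.63 passed in all 3 comparisons. The standard errors of the log2 differences named in this group were 0.11 to 0.32. Some of these calls ended when 1 library was left out. The MIDN call ended in tagged cells with auxin without stressed replicates 2, 3 or 4 or unstressed replicates 1, 2, 3 or 4 (0.60 to 0.66). The ARRDC3 call ended in parental cells with auxin without stressed replicate 4 or unstressed replicates 2, 3 or 4 (0.29 to 0.36).

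**Figure D3:**
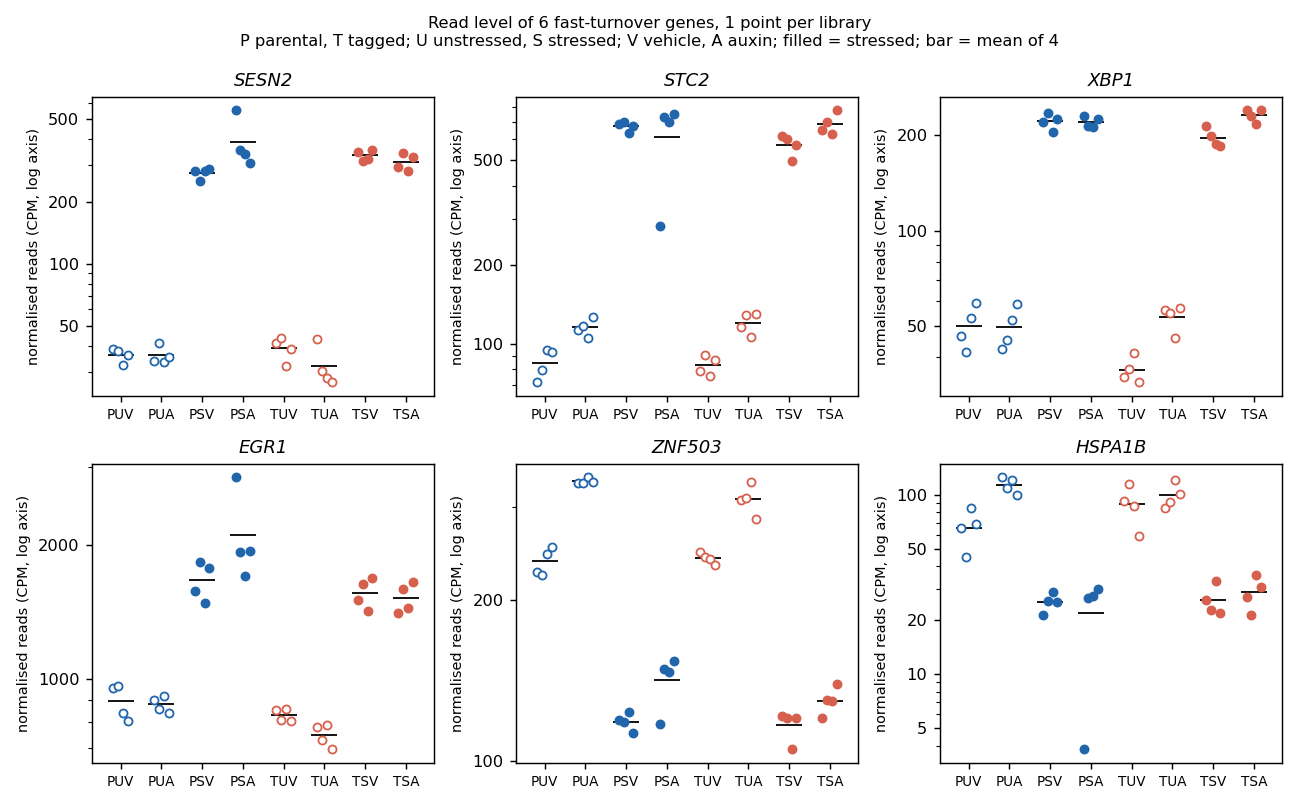
CPM (logarithmic axis) of SESN2, STC2, XBP1, EGR1, ZNF503 and HSPA1B in each of the 32 libraries, 1 point per library with the group mean as a bar, by group. SESN2, STC2 and XBP1 are higher in the stressed groups, and ZNF503 and HSPA1B are lower.

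Of the 11 immediate-early members, 5, 4 and 5 rose in total reads in parental cells with auxin, tagged cells with vehicle and tagged cells with auxin, and none fell. These counts were 7, 6 and 6 without the shallow library. EGR1, a zinc-finger factor induced by ERK signalling, had 855, 808, 856 and 804 CPM without tunicamycin and 1508, 1636, 1419.9 and 1689 CPM with it in tagged cells with vehicle and 781, 731, 787 and 696 CPM without tunicamycin and 1407, 1593, 1449 and 1656 CPM with it in tagged cells with auxin. Every stressed well lay above every unstressed one in both comparisons. The EGR1 log2 differences were 1.26, 0.91 and 1.03. IER3, which limits apoptosis, had 2618, 2752, 2541 and 2544 CPM without tunicamycin and 14200.2, 6342, 5662 and 4829.9 CPM with it in parental cells with auxin, where the highest value belongs to the shallow library, and 2999.6, 2410.1, 2616 and 3032 CPM without tunicamycin and 4960.3, 5919, 4342 and 6338 CPM with it in tagged cells with vehicle. The IER3 values did not overlap either, and its differences were 1.57, 0.96 and 1.01, and the first of them was 1.10 without the shallow library. MAFF, a partner of NRF2 and other bZIP proteins, rose by 0.56, 0.67 and 0.69 and KLF6, a Krüppel-like factor, by 0.64, 0.45 and 0.49. FOSL1, an AP-1 subunit, had 0.26, 0.23 and 0.09 and did not pass, and neither did IER5 with -0.34, -0.11 and 0.00. JUNB had positive values of 0.42, 0.56 and 0.73 that did not pass with all libraries in the fit. The HLH repressors ID1, ID2 and ID3 had no call in total reads, with ID1 at -0.03, 0.21 and 0.26 and ID2 at -0.33, -0.17 and -0.25. Of 3 KLF, SP and MAX-network factors, MNT, a MAX partner that represses transcription, rose by 1.16, 0.89 and 0.98, and KLF5 rose by 0.82 and 0.55 with auxin and had 0.42 with vehicle. SP3 did not pass in any of the 3. With the shallow library left out, JUNB at 0.69, 0.57 and 0.73 and KLF5 at 0.55, 0.43 and 0.55 passed in all 3 comparisons. Also called then were FOSL1 in parental cells with auxin (0.40), ID2 in tagged cells with auxin (-0.25) and ID3 in parental cells with auxin (0.47). Standard errors of the named log2 differences lay at 0.10 to 0.23. Leaving out 1 library ended part of the calls. The MAFF call ended in parental cells with auxin without stressed replicates 2, 3 or 4 or unstressed replicates 1, 2, 3 or 4 (0.43 to 0.60) and in tagged cells with vehicle without stressed replicates 1 or 4 or unstressed replicates 3 or 4 (0.60 to 0.67). MAFF also lost it in tagged cells with auxin without stressed replicate 4 or unstressed replicate 1 (0.62 to 0.64). The MNT call ended in tagged cells with vehicle without unstressed replicate 1 (0.78). The KLF5 call ended in tagged cells with auxin without stressed replicates 1, 2, 3 or 4 or unstressed replicates 1, 2, 3 or 4 (0.51 to 0.57).

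Of the 6 survival and death regulators 4, 4 and 4 rose and none fell in the 3 comparisons. GADD45A, a stress sensor that activates p38 and JNK signalling, had 93.8, 78.9, 90.5 and 93.1 CPM without tunicamycin and 226, 287, 246 and 303 CPM with it in tagged cells with vehicle and differences of 1.93, 1.58 and 1.63. The stressed wells were all higher. Its relative GADD45B rose by 1.21, 1.01 and 1.21. PMAIP1 had 126, 140.4, 134 and 119 CPM without tunicamycin and 231, 228, 249 and 265 CPM with it and rose by 0.96, 0.91 and 1.06. The antiapoptotic BCL2 relative MCL1 had 0.14, 0.28 and 0.19 and BIRC2, an inhibitor of apoptosis protein, 0.17, 0.32 and 0.20, and neither passed. Of the 7 p53 targets, GADD45A and PMAIP1 rose in all 3 comparisons, and the nuclease AEN at -0.08, -0.15 and -0.12 and the kinase regulator SERTAD1 at 0.02, 0.18 and 0.10 did not pass in any. Also called without the shallow library were MCL1 in tagged cells with vehicle (0.29) and BIRC2 in parental cells with auxin (0.38). These log2 differences had standard errors of 0.11 to 0.20.

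Among feedback regulators 4, 3 and 3 of 10 members rose and 1, 0 and 0 fell, and without the shallow library 5, 4 and 3 rose and 0, 2 and 1 fell. ERRFI1 had 125, 133, 128 and 109 CPM without tunicamycin and 290.0, 307, 274 and 247 CPM with it in tagged cells with vehicle and rose by 1.41, 1.17 and 1.21. The ERK phosphatases DUSP6 and DUSP5 rose by 0.97, 0.90 and 1.09 and by 0.63, 0.58 and 0.82. NFKBIA, the inhibitor of NF-κB, had -0.33, -0.33 and -0.14 and DKK1 0.32, 0.51 and 0.39, without a call. HBEGF, a ligand of EGFR, rose by 1.23, 1.01 and 0.81, and the ephrin EFNA1 passed with all libraries in parental cells with auxin, at 0.53 against 0.52 and 0.51 in tagged cells. Of the 15 cell cycle regulators 2, 2 and 2 rose and 3, 0 and 1 fell (3, 3 and 3 and 2, 2 and 1 without the shallow library). Of the 10 mRNA decay regulators 1, 1 and 1 rose and 3, 1 and 2 fell (2, 2 and 2 and 3, 2 and 2 without it). Among these, BTG1, an antiproliferative protein that binds the CCR4-NOT deadenylase, had 105, 91.3, 109.6 and 92.8 CPM without tunicamycin and 268, 285, 227 and 293 CPM with it and rose by 2.14, 1.43 and 1.56. The CDK inhibitor CDKN1B rose by 0.50, 0.48 and 0.46. The ubiquitin ligase SIAH2 rose by 0.46, 0.58 and 0.85 and the clock repressor PER1 by 0.99, 1.15 and 1.06. A further group of 3 members act at the ER or at mitochondria. ALG2, a mannosyltransferase that builds the N-glycan precursor, rose by 0.65, 0.89 and 0.79, the ER membrane protein TMEM39A by 1.19, 1.06 and 0.82 and the mitochondrial outer membrane protein ARMCX3 by 1.12, 1.14 and 0.95. Members named here for passing in all 3 comparisons were chosen after their values were seen. With the shallow library left out, EFNA1 at 0.58, 0.53 and 0.51 passed in all 3 comparisons. Also called then were NFKBIA in tagged cells with vehicle (-0.32) and DKK1 in parental cells with auxin (0.60) and tagged cells with vehicle (0.52). For the differences named, the standard error was 0.12 to 0.26. Not all of these calls held with every library left out in turn. The DUSP5 call ended in tagged cells with vehicle without stressed replicates 2 or 4 or unstressed replicates 1, 3 or 4 (0.52 to 0.60). The EFNA1 call ended in parental cells with auxin without stressed replicates 2, 3 or 4 or unstressed replicates 1, 2 or 3 (0.40 to 0.58). The CDKN1B call ended in tagged cells with vehicle without stressed replicate 2 or unstressed replicate 1 (0.40 to 0.43) and in tagged cells with auxin without stressed replicate 2 or unstressed replicates 2, 3 or 4 (0.42 to 0.44). The SIAH2 call ended in parental cells with auxin without stressed replicates 2, 3 or 4 or unstressed replicates 1, 2, 3 or 4 (0.34 to 0.48) and in tagged cells with vehicle without unstressed replicates 1 or 4 (0.52 to 0.54).

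Among the members that fell in all 3 comparisons were HSPA1B, ZNF503, CDK5R1, ZFP36L2, FOXC1 and CBX2, and the largest fall was that of HSPA1B. HSPA1B, which encodes an inducible Hsp70, had 93.0, 116, 86.9 and 59.2 CPM without tunicamycin and 25.9, 22.9, 33.1 and 21.99 CPM with it in tagged cells with vehicle and 125, 110.1, 121 and 101 CPM without tunicamycin and 3.82, 26.8, 27.2 and 30.1 CPM with it in parental cells with auxin. Its log2 differences were -2.21, -1.77 and -1.78, and that in parental cells with auxin was -2.02 without the shallow library, in which it had the lowest value. HSPA1B is nearly identical to its neighbour HSPA1A, and how the authors' counting divided reads between them is not given in the sources used here, so its values are uncertain. All stressed wells lay below the unstressed ones in both comparisons. ZNF503, a zinc-finger corepressor, had 247, 242, 239.7 and 233 CPM without tunicamycin and 121, 120.1, 105 and 120.3 CPM with it and fell by 1.23, 1.04 and 1.25. CDK5R1 fell by 0.99, 0.89 and 0.77 and ZFP36L2 by 0.86, 0.76 and 0.81. Both carry an AU-rich site shown above, as do MAFF and PMAIP1, which rose in all 3 comparisons. A link between the site and the direction of change was not tested. FOXC1, a forkhead factor, fell by 0.66, 1.02 and 0.79 and ZBTB7A, a zinc-finger repressor, by 0.79, 0.62 and 0.53. CBX2, a Polycomb protein, fell by 1.00, 0.61 and 1.01. YTHDF3, a reader of N6-methyladenosine, fell by 0.50, 0.43 and 0.40, TRMT10C, a subunit of mitochondrial RNase P, by 0.82, 0.47 and 0.73, and TNFRSF10D, a decoy receptor for TRAIL, by 0.42, 0.73 and 0.67. Also lower in all 3 were the kinase DYRK2, the CUL3 adaptor KBTBD6, the zinc-finger factor ZIC2 and FAM217B. The standard errors of the log2 differences named in this group were 0.09 to 0.25. Some of these calls ended when 1 library was left out. The ZFP36L2 call ended in tagged cells with vehicle without stressed replicates 1 or 4 (-0.70 to -0.69). The CBX2 call ended in tagged cells with vehicle without stressed replicates 1, 3 or 4 or unstressed replicates 3 or 4 (-0.60 to -0.50). The YTHDF3 call ended in tagged cells with vehicle without stressed replicates 1, 2 or 3 or unstressed replicates 1 or 4 (-0.43 to -0.35) and in tagged cells with auxin without stressed replicates 1, 2, 3 or 4 or unstressed replicates 1, 2 or 3 (-0.41 to -0.38). The TNFRSF10D call ended in parental cells with auxin without stressed replicates 2 or 4 or unstressed replicates 1, 2 or 3 (-0.44 to -0.37).

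In the longer lists the following counts stand beside backgrounds of 7.19%, 2.93% and 3.01% higher and 3.19%, 1.10% and 1.12% lower with all libraries. C2H2 zinc-finger genes had 4, 5 and 4 of 45 members lower and 6, 0 and 0 higher (4, 5 and 5 lower and 5, 4 and 4 higher without the shallow library). Forkhead, SOX, GATA and homeobox factors had 3, 2 and 1 of 11 lower and 1, 0 and 0 higher (3, 2 and 2 lower and 1, 0 and 0 higher without the shallow library). That list does not hold HOXA11, a homeobox member chosen after its values were seen, which rose by 0.50, 0.79 and 0.79. HOXA10 fell by 0.42 in parental cells with auxin and by 0.45 in tagged cells with vehicle, and had -0.31 in tagged cells with auxin. HOXA9 and ADNP did not pass in any comparison. Ubiquitin ligases and deubiquitinases had 2, 2 and 2 of 28 lower and 1, 1 and 1 higher (3, 3 and 4 lower and 1, 1 and 2 higher without the shallow library), and MARCHF7, TRIM11, RNF139 and FBXW7, the most read of them, had no call. Chromatin regulators had 1, 1 and 1 of 19 lower and 3, 2 and 2 higher (1, 2 and 1 lower and 4, 4 and 4 higher without the shallow library). SETD5 and ARID1A had no call with all libraries, with SETD5 at 0.27, 0.34 and 0.39. Splicing regulators had 1, 1 and 1 of 12 lower, each time DYRK2, and none higher (1, 1 and 1 lower and 0, 0 and 1 higher without the shallow library), and ARGLU1, RBM14, RBM39 and SRSF4 did not pass. The single reported IGF2BP3 target among the members, ZFP36L1, had 0.04, 0.24 and 0.32 in total reads and did not pass with all libraries. With the shallow library left out, HOXA10 at -0.45, -0.43 and -0.31, SETD5 at 0.42, 0.35 and 0.39 and ZFP36L1 at 0.27, 0.25 and 0.31 passed in all 3 comparisons. Also called then was TRIM11 in tagged cells with auxin (0.36). Standard errors of the named log2 differences lay at 0.11 to 0.16. Leaving out 1 library ended part of the calls. The HOXA11 call ended in parental cells with auxin without stressed replicates 2 or 3 or unstressed replicates 1, 2, 3 or 4 (0.38 to 0.54). The HOXA10 call ended in tagged cells with vehicle without stressed replicate 2 or unstressed replicate 1 (-0.40 to -0.39).

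The labelled share answers a different question, namely whether a gene's reads became richer or poorer in newly made RNA than those of the typical gene in the same wells. It is given as a log2 difference in the odds of a labelled read, centred on the typical gene. In parental cells with auxin the share rose for 14 members and fell for 31, where 5.35% of all genes tested rose and 2.66% fell. In tagged cells with vehicle it rose for 9 and fell for 23 (background 5.08% and 1.96%), and in tagged cells with auxin for 17 and 28 (5.07% and 2.04%). As percentages of the members, rises made up 2.34%, 1.503% and 2.84%, below the background, and falls 5.17%, 3.84% and 4.67%, above it. On the odds scale the same proportional fall moves a high share further than a low one. The median member share went from 34.8 to 28.8%, 36.3 to 31.98% and 33.0 to 28.3% in these comparisons. That of the other eligible genes went from 13.0 to 10.7%, 13.2 to 11.7% and 12.1 to 10.5%. The part of this scale in the split of member calls was not tested. In all 3 comparisons 6 members had a higher and 8 a lower share, beside 263 and 32 of all genes, and none was called in opposite directions. When the shares were not centred, the typical gene itself fell by 0.35, 0.25 and 0.28 on the log2 scale. The calls were then 2 higher and 147 lower in parental cells with auxin (background 2.17% and 14.7%), 4 and 68 in tagged cells with vehicle (2.76% and 8.27%), and 4 and 99 in tagged cells with auxin (2.35% and 9.94%). Of the 6 members higher in all 3 comparisons, 1, HSPA1B, kept that call without centring. All 8 lower ones kept theirs, among 29 members then lower in all 3, a count not made over all genes. Without replicate 3 of unstressed parental cells with auxin 27 members were called in parental cells in place of 45, and in tagged cells with vehicle 21 in place of 32 without stressed replicate 4 or without unstressed replicate 1 or 4. A rise in share below is therefore a rise relative to the typical gene.

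The 8 members whose share fell in all 3 comparisons were EGR1, IER3, PMAIP1, GADD45A, ZFP36L1, ID3, TIPARP and CCNL1. EGR1 had labelled shares of 78.5, 77.8, 81.7 and 79.9% without tunicamycin and 56.9, 67.1, 66.8 and 66.4% with it in parental cells with auxin, and 81.3, 79.5, 82.4 and 81.0% without tunicamycin and 69.5, 70.2, 70.4 and 70.7% with it in tagged cells with auxin. The centred differences of EGR1 were -0.72, -0.28 and -0.57. IER3 had 63.1, 60.6, 64.2 and 61.9% without tunicamycin and 49.8, 50.6, 50.5 and 52.02% with it in tagged cells with auxin and differences of -0.42, -0.27 and -0.40. Neither EGR1 nor IER3 overlapped between stressed and unstressed wells there. PMAIP1 had 48.0, 38.5, 46.1 and 40.6% without tunicamycin and 26.1, 30.1, 27.0 and 30.1% with it, again without overlap, and differences of -0.46, -0.56 and -0.65, and GADD45A had -0.55, -0.62 and -0.69. These 4 genes rose in total reads in the same 3 comparisons, so that their read counts went up while the labelled share of those reads went down. Their labelled reads also rose in all 3, relative to the typical gene's labelled reads. The falls in share are on the odds scale, on which high shares such as that of EGR1 move further than low ones. ZFP36L1, a decay factor that binds AU-rich elements, had 51.9, 48.9, 60 and 55.5% without tunicamycin and 34.5, 39.4, 38.9 and 36.1% with it in parental cells with auxin and differences of -0.61, -0.38 and -0.47. In total reads it had no call with all libraries and rose by 0.27, 0.25 and 0.31 without the shallow library. ID3 had -0.60, -0.57 and -0.66, TIPARP -0.76, -0.92 and -0.74 and the cyclin CCNL1, which works in splicing, -0.88, -1.02 and -0.82, also with no call in total reads, except that ID3 rose by 0.47 in parental cells with auxin without the shallow library. By list, the share fell for 4, 2 and 3 of the 11 immediate-early members and rose for 0, 0 and 0. Of the 6 survival and death regulators it fell for 4, 3 and 3 and rose for 0, 1 and 1. Standard errors were 0.06 to 0.30. Some of these calls ended when 1 library was left out. The EGR1 share call ended in tagged cells with vehicle without stressed replicates 2 or 4 or unstressed replicates 1 or 2 (-0.28 to -0.24). The PMAIP1 share call ended in parental cells with auxin without stressed replicate 2 or unstressed replicate 3 (-0.41 to -0.40). The GADD45A share call ended in parental cells with auxin without stressed replicate 1 or unstressed replicates 2 or 3 (-0.52 to -0.39) and in tagged cells with auxin without unstressed replicate 2 (-0.51). The ZFP36L1 share call ended in tagged cells with vehicle without stressed replicates 2, 3 or 4 or unstressed replicates 1, 3 or 4 (-0.40 to -0.30). The ID3 share call ended in tagged cells with vehicle without unstressed replicate 1 (-0.44). The TIPARP share call ended in parental cells with auxin without stressed replicates 1, 3 or 4 or unstressed replicates 1, 2, 3 or 4 (-0.78 to -0.66) and in tagged cells with vehicle without stressed replicates 1, 3 or 4 or unstressed replicates 1, 2 or 4 (-0.96 to -0.74). TIPARP also lost it in tagged cells with auxin without stressed replicates 3 or 4 or unstressed replicates 2, 3 or 4 (-0.73 to -0.63). The CCNL1 share call ended in parental cells with auxin without stressed replicate 3 or unstressed replicate 3 (-0.78 to -0.56) and in tagged cells with vehicle without unstressed replicate 2 (-0.83). CCNL1 also lost it in tagged cells with auxin without stressed replicate 3 or unstressed replicates 2 or 3 (-0.74 to -0.69).

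The 6 members whose share rose in all 3 comparisons were HSPA1B, ALG2, ARMCX3, XBP1, YTHDF3 and VMP1. HSPA1B had labelled shares of 33.2, 32.6, 25.7 and 39.6% without tunicamycin and 58.7, 63.9, 47.7 and 68.5% with it in tagged cells with vehicle, where the groups did not overlap, and centred differences of 2.39, 1.85 and 2.45. XBP1 had 44.6, 39.3, 43.3 and 44.1% without tunicamycin and 49.6, 53.8, 45.1 and 49.9% with it in tagged cells with vehicle and differences of 0.60, 0.65 and 0.65. The stressed wells of XBP1 were higher, with the nearest 2 values less than 1 percentage point apart. ALG2 had 25, 37.9, 26.2 and 23.9% without tunicamycin and 44.0, 44.7, 46.5 and 49.8% with it and differences of 0.61, 1.39 and 0.98, and ARMCX3 had 0.89, 1.19 and 0.84. For XBP1, ALG2 and ARMCX3 total reads rose too. YTHDF3 had 0.75, 0.79 and 0.61 and VMP1, an ER membrane protein of autophagy, 0.60, 0.51 and 0.52. HSPA1B and YTHDF3 fell in total reads in the same comparisons, while VMP1 had no call there. The share of YTHDF2, the best-known m6A reader in decay, rose by 0.58 and 0.38 with auxin and had 0.35 in tagged cells with vehicle. TMEM39A had 0.97 and 0.95 with auxin and 0.27, without a call, in tagged cells with vehicle. Measured as conversions per covered T position, without centring, the values of ALG2 and YTHDF3 in parental cells with auxin, of XBP1 and VMP1 in tagged cells with vehicle and of XBP1, ARMCX3, YTHDF3 and YTHDF2 in tagged cells with auxin were below 0. Standard errors were 0.12 to 0.28. Some of these calls ended when 1 library was left out. The ALG2 share call ended in parental cells with auxin without stressed replicates 3 or 4 or unstressed replicates 2 or 4 (0.47 to 0.60). The XBP1 share call ended in parental cells with auxin without stressed replicates 2 or 4 or unstressed replicates 1 or 2 (0.46 to 0.56) and in tagged cells with vehicle without stressed replicate 2 or unstressed replicates 1, 2 or 3 (0.60 to 0.65). XBP1 also lost it in tagged cells with auxin without unstressed replicate 4 (0.57). The YTHDF3 share call ended in tagged cells with auxin without stressed replicates 1 or 2 or unstressed replicate 3 (0.45 to 0.54). The VMP1 share call ended in tagged cells with vehicle without stressed replicates 1 or 4 or unstressed replicate 3 (0.34 to 0.49) and in tagged cells with auxin without stressed replicate 2 (0.44). The YTHDF2 share call ended in tagged cells with auxin without stressed replicates 2 or 4 or unstressed replicates 2 or 4 (0.28 to 0.37). The TMEM39A share call ended in parental cells with auxin without unstressed replicate 4 (0.83) and in tagged cells with auxin without stressed replicate 2 or unstressed replicate 4 (0.83).

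**Figure D4:**
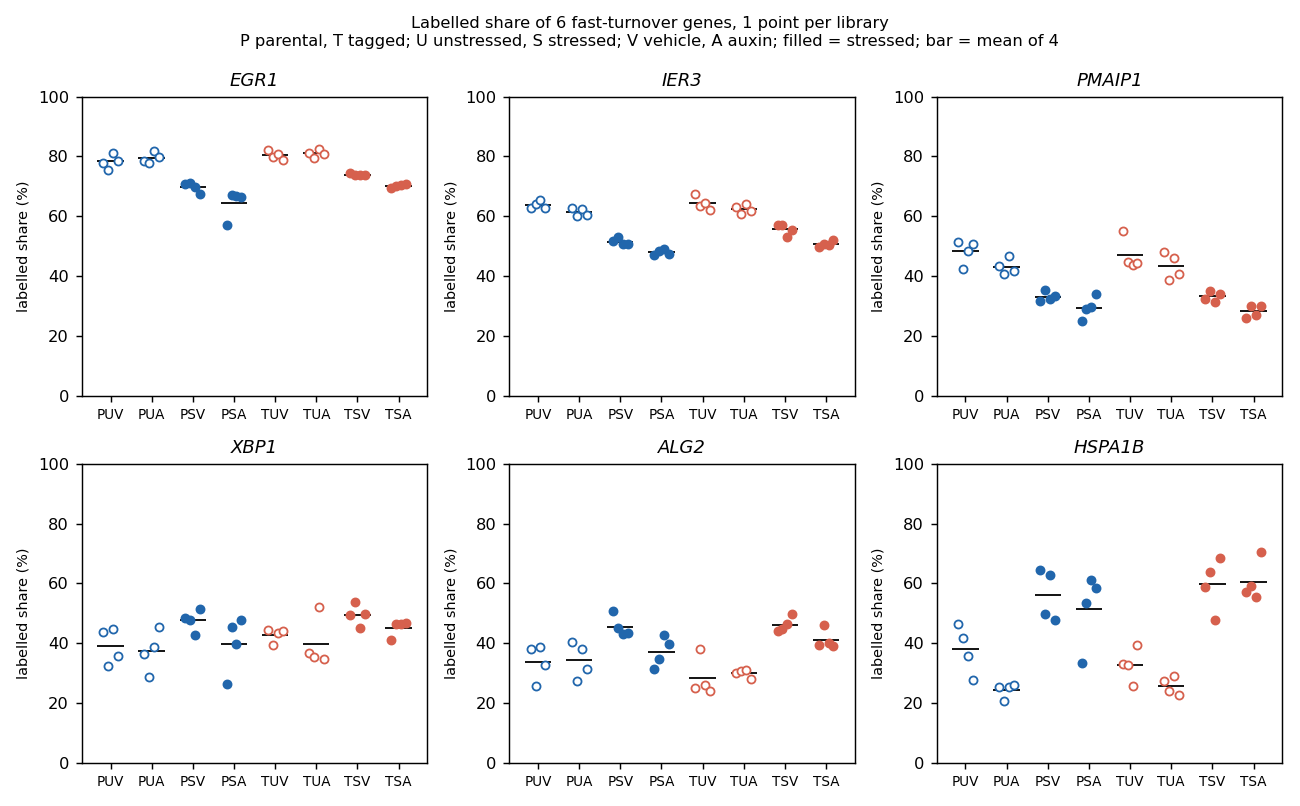
Labelled share (percent of reads) of EGR1, IER3, PMAIP1, XBP1, ALG2 and HSPA1B in each of the 32 libraries, 1 point per library with the group mean as a bar, by group. EGR1, IER3 and PMAIP1 lie lower in the stressed groups, and HSPA1B lies higher.

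Members called in both readings are counted here by direction, as a description. The same counts were not made over all genes, so they do not set the members apart from other genes. In parental cells with auxin 14 members were higher in total reads and lower in share, 3 the reverse, 5 higher in both and 0 lower in both. In tagged cells with vehicle these counts were 4, 2, 4 and 1, and in tagged cells with auxin 10, 4, 4 and 2. EGR1, IER3, PMAIP1 and GADD45A were in the first class in all 3 comparisons, and HSPA1B and YTHDF3 in the second. Labelled reads are part of total reads, so the readings are not independent of each other.

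**Figure D5:**
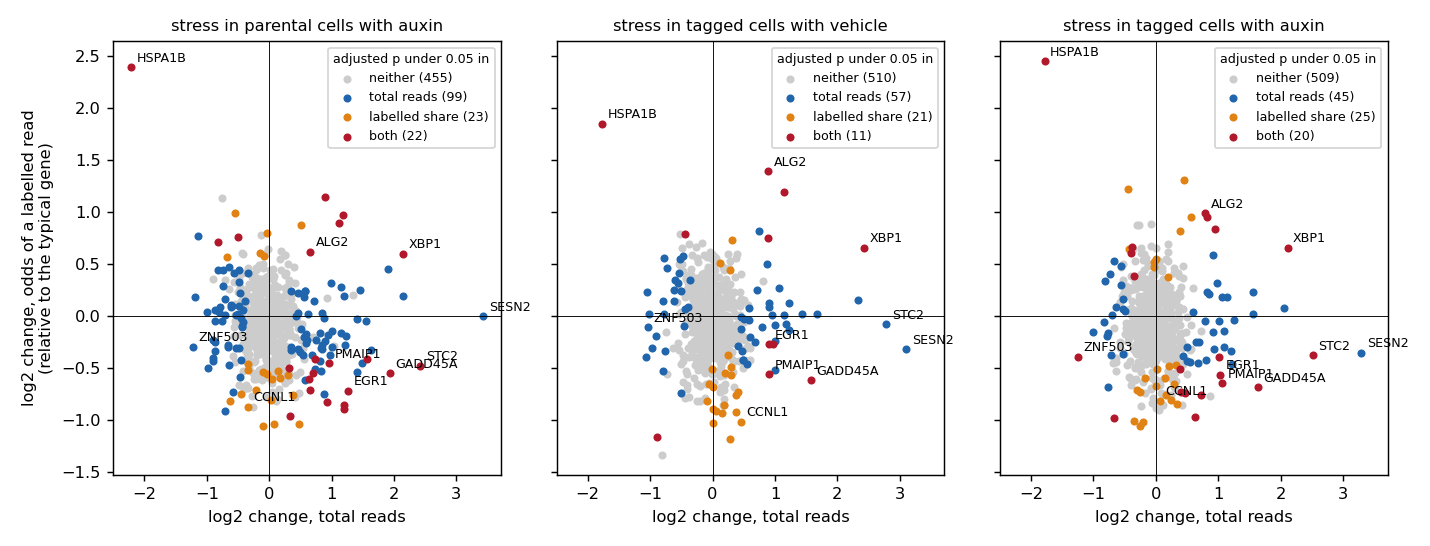
Log2 difference in labelled share (vertical axis, centred on the typical gene) against log2 difference in total reads (horizontal axis) of the 599 members in the 3 stress comparisons, coloured by which reading passed adjusted p 0.05. Both readings passed for 22 members in parental cells with auxin, 11 in tagged cells with vehicle and 20 in tagged cells with auxin. All genes were not counted in this way.

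The number of labelled reads, scaled to the typical gene's labelled reads, counts only reads of RNA made during the pulse, apart from other T-to-C mismatches. In parental cells with auxin 63 members rose and 30 fell, where 7.92% and 3.45% of all genes tested did. In tagged cells with vehicle 54 rose and 28 fell (background 6.89% and 2.48%), and in tagged cells with auxin 51 and 30 (6.95% and 2.85%). In all 3 comparisons 38 members rose and 8 fell, beside 428 and 47 of all genes. SESN2 had the largest rise, 3.46, 3.01 and 3.20, followed by XBP1 with 2.55, 2.85 and 2.56. STC2 rose by 2.23, 2.79 and 2.31, CEBPB by 2.30, 2.50 and 2.16 and BTG1 by 2.27, 1.48 and 1.75. In parental cells with auxin CEBPB and BTG1 ranked above STC2. JUNB, which had no call in total reads with all libraries but passed in all 3 comparisons without the shallow library, rose by 0.59, 0.63 and 0.83 in labelled reads, and MCL1 by 0.41, 0.58 and 0.47. ZNF503, FOXC1, ZBTB7A, ZFP36L2 and CDK5R1 fell in all 3, with ZNF503 at -1.20, -0.96 and -1.30. EGR1 rose by 1.26, 1.00 and 1.06. PMAIP1 rose by 0.78, 0.63 and 0.69. HSPA1B fell by 0.65 in parental cells with auxin and by 0.69 in tagged cells with vehicle, and had -0.30 in tagged cells with auxin, where it did not pass. On the scale of total reads the typical gene's labelled reads fell by 0.30, 0.21 and 0.23 (log2) under stress. Members called were then 30 higher and 119 lower in parental cells with auxin (background 5.04% and 13.9%), 29 and 68 in tagged cells with vehicle (4.86% and 7.81%), and 30 and 82 in tagged cells with auxin (4.69% and 9.42%). Of the 38 members higher in all 3, 24 kept the call on that scale, SESN2, XBP1, STC2, CEBPB and EGR1 among them, and JUNB, MCL1 and PMAIP1 did not. All 8 lower ones kept theirs, among 28 members then lower in all 3, a count not made over all genes. These log2 differences had standard errors of 0.11 to 0.23. With 1 library left out, part of the calls ended. The JUNB labelled-read call ended in parental cells with auxin without stressed replicates 2, 3 or 4 or unstressed replicates 3 or 4 (0.47 to 0.55). The MCL1 labelled-read call ended in parental cells with auxin without stressed replicates 2, 3 or 4 or unstressed replicates 2 or 4 (0.33 to 0.39) and in tagged cells with auxin without unstressed replicate 1 (0.42). The HSPA1B labelled-read call ended in parental cells with auxin without stressed replicates 1 or 2 or unstressed replicates 1, 3 or 4 (-0.67 to -0.51) and in tagged cells with vehicle without stressed replicates 1, 2 or 4 or unstressed replicates 1 or 2 (-0.70 to -0.51).

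With auxin 4 members passed in unstressed tagged cells and none under stress, by the test over all 32 libraries. In unstressed tagged cells, where it directs mAID-IGF2BP3 to degradation, the 4 changed in total reads, against a background of 0.681% of all genes. XBP1 had 34.7, 36.7, 41.2 and 33.4 CPM with vehicle and 56.2, 55.2, 46.0 and 57.0 CPM with auxin, a log2 difference of 0.56 ± 0.11 (SE, adjusted p = 0.0245) by edgeR's quasi-likelihood test. TSC22D1, a leucine-zipper regulator of TGF-β signalling, had 85.5, 94.6, 99.9 and 101 CPM with vehicle and 128, 167, 126 and 118 CPM with auxin, a difference of 0.50. ZNF503 had 247, 242, 239.7 and 233 and 309, 311, 334 and 284 CPM, a difference of 0.37. SLC7A6OS fell, from 55.0, 60.9, 55.8 and 44.2 to 39.3, 29.2, 28.2 and 36.1 CPM, by 0.70. No auxin well of XBP1 or ZNF503 lay below a vehicle well. These vehicle wells are also the unstressed controls of the stress comparison in tagged cells with vehicle. In unstressed parental cells, which have no degron, the values beside the choosing group were -0.01 for XBP1, 0.43 for TSC22D1, 0.50 for ZNF503 and -0.37 for SLC7A6OS, given without a test. The XBP1 auxin call ended without auxin replicate 2 or vehicle replicates 1, 2 or 4 (0.51 to 0.56). The TSC22D1 auxin call ended without auxin replicates 2 or 3 or vehicle replicates 1, 2, 3 or 4 (0.37 to 0.53). The ZNF503 auxin call ended without auxin replicates 2 or 3 or vehicle replicates 1, 2, 3 or 4 (0.33 to 0.38). The SLC7A6OS auxin call ended without auxin replicates 2 or 3 or vehicle replicates 1, 2 or 3 (-0.69 to -0.63). With 1 library of these 2 groups left out, 0 to 1 members passed, except without auxin replicate 1 (11) or auxin replicate 4 (4), and 116 passed when only the 2 groups entered the fit. Without the shallow library, which is in neither group but is part of the same fit, 64 members were higher and 40 lower (background 7.83% and 8.20%). The number of calls here thus depends on that library, and the cause of this change was not tested. Reads covered 22.6 to 24.1 T positions with auxin and 21.6 to 22.1 with vehicle in these wells, and with that number as a covariate 18 members were called. Shares over all genes stand only beside the counts with all libraries and without the shallow library, so the other counts do not set the members apart.

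In stressed tagged cells no member passed for auxin in total reads by edgeR, where 0.0179% of all genes passed. There, 84 members had an unadjusted p under 0.05 and DESeq2 called 2. By edgeR 58 members passed when only the compared groups entered the fit, and 4 with covered T positions as a covariate. Without the shallow library 10 members were higher and 4 lower there (background 2.52%). In stressed parental cells no member passed either (background 0.0179%), with 95 at an unadjusted p under 0.05 and 19 calls by DESeq2, and without the shallow library there was again none (background 0.0269%). For the difference of the stress effect with auxin in tagged cells no member passed (background 0%), with 10 at an unadjusted p under 0.05 and no call by DESeq2. For the difference of the auxin effect between tagged and parental cells under stress none passed either (background 0%), with 133 at an unadjusted p under 0.05 and 8 calls by DESeq2. Without the shallow library both differences again had no call, with a background of 0%. Without replicate 4 of stressed parental cells with auxin, 36 members passed for auxin in stressed parental cells and 54 for the difference between lines, and without its replicates 2 and 3 in turn 7 and 8 passed for the former. No share over all genes stands beside these counts, or beside those by DESeq2, at an unadjusted p, with the covariate or with only the compared groups. They therefore do not set the members apart. The labelled share had no call in any of these 5 comparisons, each with a background of 0%, by edgeR or by limma on the ratio of labelled to other reads. The numbers of members at an unadjusted p under 0.05 were 37 for auxin in unstressed tagged cells, 42 in stressed tagged cells, 36 in stressed parental cells, 31 for the difference of the stress effect and 32 for the difference between lines. A member's standard error had a median of 0.16 in total reads and 0.25 in share for auxin in stressed tagged cells, and of 0.23 and 0.35 for the difference of the stress effect. Differences within this error were not detectable at this depth and number of wells, and larger ones can be missed too. On simulated data for stress in tagged cells with vehicle, 46 of 100 changes of 1.5-fold were recovered in total reads. In the odds of a labelled read, 9 of 100 were. ZFP36L1, the reported IGF2BP3 target, differed by 0.13 (-0.19 to 0.45, 95% interval) with auxin in unstressed and by 0.21 (-0.11 to 0.52) in stressed tagged cells in total reads.

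Start-site sequences were looked at for the members called in all 3 stress comparisons. Of the 599 members 510 matched a promoter in the RefSeq table (GRCh38.p14), and motifs were counted on both strands in the 250 bases before the start. The cAMP response element TGACGTCA, which ATF and CREB family dimers bind, was in 3.33% of the members, 7.5% of the 100 with the highest share, 3.98% of the other eligible genes and 1.98% of all promoters in the table. Among the members called higher in all 3 stress comparisons, 28 had a promoter and 3 of these (10.7%) held it. The CArG box, the site of SRF, was in 1.18% of the members and 1.29% of all promoters, and the ATF4 and C/EBP element TGATGCAA in 0.588% and 0.923%. The TATA box TATAAA was in 8.43% of the members and 13.8% of the 100 highest against 3.98% of the other eligible genes, and in 11.95% of all promoters. The GC box GGGCGG was in 71.8% and 75.3%, the E box CACGTG in 12.5% and 11.4%, and the AP-1 site TGANTCA in 4.90% and 3.79% of members and other eligible genes. Of the 28 promoters of members called higher, 21 held the GC box, 6 the E box and 3 the TATA box. In the same 28, 1 held the CArG box, 1 the AP-1 site and 0 TGATGCAA. Among members called lower in all 3 comparisons 9 had a promoter. Of these, 8 held the GC box, 1 the TATA box and 0 TGACGTCA or any of the other motifs. EGR1, MAFF and TMEM39A rose in all 3 comparisons, and their promoters are printed with the motifs in capitals, CArG boxes in EGR1 and TGACGTCA in MAFF and TMEM39A.
EGR1: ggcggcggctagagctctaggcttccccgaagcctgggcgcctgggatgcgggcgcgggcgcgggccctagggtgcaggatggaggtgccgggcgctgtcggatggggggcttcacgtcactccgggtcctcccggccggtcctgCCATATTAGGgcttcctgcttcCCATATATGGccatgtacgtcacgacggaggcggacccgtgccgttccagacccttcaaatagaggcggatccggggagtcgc
MAFF: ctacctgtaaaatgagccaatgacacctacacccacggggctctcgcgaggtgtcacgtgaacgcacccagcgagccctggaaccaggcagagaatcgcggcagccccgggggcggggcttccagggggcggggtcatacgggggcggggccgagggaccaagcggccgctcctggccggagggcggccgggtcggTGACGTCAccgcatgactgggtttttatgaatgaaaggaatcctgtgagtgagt
TMEM39A: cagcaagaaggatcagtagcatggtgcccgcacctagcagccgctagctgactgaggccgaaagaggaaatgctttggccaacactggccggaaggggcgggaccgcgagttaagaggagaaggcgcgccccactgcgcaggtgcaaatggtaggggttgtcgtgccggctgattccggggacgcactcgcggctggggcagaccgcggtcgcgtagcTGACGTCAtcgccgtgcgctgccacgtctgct
The EGR1 sequence lies at chr5:138465229-138465478 (plus strand), that of MAFF at chr22:38201744-38201993 (plus strand) and that of TMEM39A at chr3:119463616-119463865 (minus strand), each 5′ to 3′ and ending at the base before the annotated start. A match describes letters in this window, and its absence says nothing of the factor.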

How the data were processed

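SLAM-seq reads of 32 libraries (8 groups of 4) were counted by the authors before deposit into 1 table per library, in the layout of Slamdunk count tables collapsed to 1 row per transcript identifier. Per the file headers, each row gives raw read counts, counts of reads with T-to-C conversions, covered T positions and conversions. Per the file headers the tables also hold a CPM column and a conversion rate, a fraction of covered T positions, which the authors computed before deposit and which were not used. The build was hg38 per the submitters' processing notes, and the aligner, its thresholds and the annotation release are not given in the sources used here. Rows of other identifiers, and further rows of the same genes, held 42.8 to 49.3% of a file's counts and were left out. Of 40767 NM_ identifiers 40002 had a symbol in the reference tables.

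The CPM values printed were computed from the deposited counts on TMM-scaled library sizes of NM_ genes. Tests used edgeR 4.0.16 (robust quasi-likelihood, TMM, filterByExpr) in R 4.3.3 over all 32 libraries. The share was tested as labelled against other reads within each library, centred on the typical gene. The members and lists were chosen with earlier results of these data known, and comparisons with the choosing group were not tested. Genes named were the 10 highest shares, the neighbours of each limit, up to 10 calls per direction, up to 4 members per list by reads, and members called in opposite directions in both readings. On simulated data for stress in tagged cells with vehicle, the total-read test (11167 genes) recovered 46 of 100 changes of 1.5-fold and 85 of 100 of 2-fold, with 4 false calls. The share test (8951 genes) recovered 9 and 65 of 100, with 6 false calls. In this simulation each gene's expected proportion of reads was alike in all libraries, apart from the changes set. The spread of the share between libraries was a fixed setting, alike for all genes and not estimated from the data. The counts describe that setting and are not error rates of the tests on the real libraries. No pair of replicates was alike to within counting error (chi-square divided by its degrees of freedom from 2.10 to 70.1), and each library was kept as 1 replicate. Alternatives used DESeq2 1.42.0 and limma 3.58.1 (pseudocount 0.5 reads). Of these, limma on the ratio of labelled to all reads, and covered T positions as a covariate in edgeR, were chosen after seeing the data.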

Additional observations from a re-analysis of the deposited data

Results flagged for a closer look

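In 23 of 216 sets of 4 replicate values examined (10.6%), 1 library lay further from the rest than Dixon's 95% critical value, where chance gives about 1 in 20. Of these, 6 were the shallow library, replicate 1 of stressed parental cells with auxin. Replicate 1 of stressed parental cells with auxin had covered T positions per read at 15.1 (others 22.6 to 22.9), STC2 at 280.0 CPM (others 699.7 to 748) and CEBPB at 52.2 CPM (others 168 to 189.6). It also had the EGR1 labelled share at 56.9% (others 66.4 to 67.1%), IER3 at 14200.2 CPM (others 4829.9 to 6342) and HSPA1B at 3.82 CPM (others 26.8 to 30.1). Replicate 3 of stressed tagged cells with vehicle had ZNF503 at 105 CPM (others 120.1 to 121), ZFP36L2 at 50.7 CPM (others 32.1 to 33.7) and the ID3 labelled share at 63.1% (others 66.3 to 66.9%). Replicate 3 of unstressed tagged cells with auxin had XBP1 at 46.0 CPM (others 55.2 to 57.0) and the XBP1 labelled share at 52.1% (others 34.8 to 36.8%). Replicate 2 of stressed parental cells with vehicle had CEBPB at 198 CPM (others 149 to 155). Replicate 2 of unstressed parental cells with auxin had the HSPA1B labelled share at 20.7% (others 25.4 to 25.9%). Replicate 3 of unstressed parental cells with auxin had the CCNL1 labelled share at 73.3% (others 66.9 to 67.3%). Replicate 3 of unstressed parental cells with vehicle had the summed CPM of the members at 42281 (others 41198 to 41329.9). Replicate 1 of stressed tagged cells with auxin had the XBP1 labelled share at 41.2% (others 46.5 to 46.8%). Replicate 2 of stressed tagged cells with auxin had the ALG2 labelled share at 46.2% (others 38.9 to 40.03%). Replicate 3 of stressed tagged cells with auxin had CEBPB at 216 CPM (others 178 to 183). Replicate 1 of stressed tagged cells with vehicle had the EGR1 labelled share at 74.4% (others 73.6 to 73.7%). Replicate 2 of stressed tagged cells with vehicle had DUSP6 at 234 CPM (others 189 to 197). Replicate 1 of unstressed tagged cells with vehicle had the PMAIP1 labelled share at 54.9% (others 43.7 to 44.8%). Replicate 2 of unstressed tagged cells with vehicle had the ALG2 labelled share at 37.9% (others 23.9 to 26.2%). Replicate 4 of unstressed tagged cells with vehicle had SLC38A2 at 377 CPM (others 337 to 341).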

How the results depend on the processing

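Of 235 calls of named members, 126 held under every alternative run for them and 152 held with each library left out in turn, while 465 of 3837 call-by-alternative tests lost the call. A total of 13 share rises reversed sign, each with limma on log2 conversions per covered T, which like the other limma measures is not centred: BAG3 at -0.094, KLHL9 at -0.12, YTHDF3 at -0.056 and ALG2 at -0.010 in parental cells with auxin, NGRN at -0.022, XBP1 at -0.22, VMP1 at -0.078 and MCL1 at -0.22 in tagged cells with vehicle and ARMCX3 at -0.11, CDC25A at -0.12, XBP1 at -0.17, YTHDF2 at -0.21 and YTHDF3 at -0.068 in tagged cells with auxin. The following are numbers of members called, without shares over all genes beside them, and the cause of each change was not tested. For stress in parental cells with auxin, fitting only the compared groups gave 18 in total reads, 26 in share and 33 in labelled reads. The share there gave 331 with conversions per covered T, 183 with limma on labelled over all reads, 173 on labelled over other reads and 149 without centring, and labelled reads scaled by total reads gave 149. For stress in tagged cells with vehicle, total reads gave 145 with covered T positions as covariate and 115 with only the compared groups, and the share 254 with conversions and 72 without centring. With auxin the corresponding counts were 136, 123, 303 and 103, and the share gave 77 over all and 75 over other reads. For auxin in unstressed tagged cells, total reads gave 18 with the covariate, 34 with DESeq2, 2 without a filter and 116 with only the compared groups, and the share 1 with conversions and 2 without a filter. In stressed tagged cells auxin gave 4 with the covariate, 2 with DESeq2 and 58 with only the compared groups, and in share 1 with conversions and 2 without a filter. DESeq2 gave 19 for auxin in stressed parental cells and 8 for the difference between lines.

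Leaving out each library in turn gave, in total reads, 85 to 140 members for stress in parental cells with auxin, 56 to 129 in tagged cells with vehicle, 52 to 123 in tagged cells with auxin, 0 to 104 for auxin in unstressed tagged cells, 0 to 14 in stressed tagged cells, 0 to 36 in stressed parental cells and 0 to 54 for the difference between lines. The highest counts came without the shallow library, except in stressed parental cells (stress 140, auxin 36) and between lines, where they came without replicate 4 of stressed parental cells with auxin. For auxin in stressed parental cells these were 7 without its replicate 2, 8 without its replicate 3 and 36 without its replicate 4, the auxin group. In share the ranges were 27 to 40, 21 to 35 and 32 to 50 for the 3 stress comparisons, the lowest without unstressed parental auxin replicate 3, stressed tagged vehicle replicate 4 and unstressed tagged auxin replicate 2. In labelled reads they were 72 to 111, 61 to 107 and 59 to 108. All these ranges are counts of members, given without shares over all genes. The number of members was 958 at a share limit of 0.25, 377 at 0.35, 1066 at 200 reads and 233 at 800 reads. Replicate numbers are shared by the groups, but correlations of same-numbered deviations ran from -0.393 to 0.508, with no comparison above 0.1 in all 4 pairs, so the numbers were not taken to pair the wells. With the replicate number as a block, the 3 stress comparisons gave 113, 67 and 65 in total reads, 42, 32 and 44 in share and 90, 79 and 78 in labelled reads, and auxin in unstressed tagged cells 5 in total reads. The median standard error of a member for stress in tagged cells with vehicle was 0.16 in total reads and 0.25 in share. Share differences within that error were not detectable, and larger ones can be missed too. On simulated data 9 of 100 changes of 1.5-fold in the odds of a labelled read were recovered. The covariate and the ratio over all reads were chosen after seeing the data, and DESeq2 was not run on the share.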
